A study of Mus musculus with 6 samples.

Results

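Sphingosine-1-phosphate (S1P) receptors and the enzymes and exporter of S1P turnover were described in mouse oligodendrocytes, which make the myelin of the brain and spinal cord, from control and Qk-KO animals. The group was defined by gene symbol as the 5 receptors S1pr1, S1pr2, S1pr3, S1pr4 and S1pr5, the kinases Sphk1 and Sphk2, the lyase Sgpl1, the phosphatase Sgpp1 and the exporter Spns2. All 10 genes were found among the 46983 features of the deposited table. Testing was limited to the 15153 features whose mean normalized count reached 20, which left 9 of the 10, with Sphk1 below that level.

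The study asked which genes differ in expression between Qk-KO and control oligodendrocytes, and Qk encodes quaking, an RNA-binding protein of myelin-forming cells. RNA from the brain cells was sequenced without culture, in 3 libraries of WT controls and 3 libraries of Qk-KO mice, which carry Plp-CreERT2;QKLoxP/LoxP. All mice were of an FvB/C57BL6 hybrid strain, both groups received tamoxifen when 8 weeks old, and oligodendrocytes were isolated from the brain 4 days after it. The Plp promoter drives the inducible Cre, so deletion depends on where and how well that promoter is active at the time of tamoxifen. The sources used here do not say whether the WT controls carried the Cre transgene or a floxed allele, how the cells were isolated, or whether each library is a separate mouse. The p-values therefore measure the spread between these libraries, which may be technical. Every change below is Qk-KO minus WT on the scale of the deposited log2 values, with its standard error from limma, n = 3 libraries per group and an adjusted p from limma with Benjamini-Hochberg adjustment over all 15153 features. An adjusted p under 0.05 is called higher or lower.

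S1P is a lipid made inside cells when a sphingosine kinase phosphorylates sphingosine, the backbone released from ceramide. It is removed by dephosphorylation or by irreversible cleavage by S1P lyase, and it leaves cells through transporters such as Spns2 to act on G protein-coupled receptors at the surface. In the brain, S1pr5 is known as the receptor of oligodendrocytes, S1pr1 as a receptor of astrocytes and of vessel endothelium, S1pr3 as a receptor of vessel-associated cells and astrocytes, and S1pr4 as a receptor of lymphoid and myeloid cells.

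Upstream sequences are shown for 3 of the 4 members whose level changed, so that the starts of genes that moved in opposite directions can be compared. RefSeq promoter entries on GRCm38.p6, the same assembly as mm10, matched 9 of the 10 members, and S1pr1 was the member not matched. Each line gives the 250 bases before the RefSeq start, 5′ to 3′ on the strand of the gene, and capitals mark matches on either strand to ACAAAG (a SOX core), GGGCGG (a GC box) or CAGCTG (an E-box).
S1pr5 (higher), chr9:21248444-21248693, minus strand: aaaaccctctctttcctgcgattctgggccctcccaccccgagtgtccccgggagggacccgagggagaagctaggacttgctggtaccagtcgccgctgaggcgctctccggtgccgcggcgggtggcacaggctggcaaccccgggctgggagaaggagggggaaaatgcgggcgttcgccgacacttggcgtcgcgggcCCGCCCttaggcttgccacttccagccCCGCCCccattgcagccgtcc
Spns2 (higher), chr11:72475028-72475277, minus strand: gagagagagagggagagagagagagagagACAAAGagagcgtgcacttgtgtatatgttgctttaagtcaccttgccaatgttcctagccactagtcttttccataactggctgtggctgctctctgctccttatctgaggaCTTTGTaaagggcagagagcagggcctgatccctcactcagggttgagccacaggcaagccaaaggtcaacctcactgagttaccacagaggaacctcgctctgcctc
S1pr3 (lower), chr13:51408368-51408617, plus strand: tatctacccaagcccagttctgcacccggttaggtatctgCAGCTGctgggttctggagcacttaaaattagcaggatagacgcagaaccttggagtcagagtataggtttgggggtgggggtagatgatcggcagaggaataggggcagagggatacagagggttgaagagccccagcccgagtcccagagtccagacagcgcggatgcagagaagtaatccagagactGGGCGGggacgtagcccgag

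The 3 windows differed in base composition and in the motifs they held, and no match overlapped another. The S1pr5 window was the richest of the 3 in G and C, at 69.2%, against a median of 52.4% over all 32851 RefSeq windows. It held 2 GC boxes, with first letters 48 and 21 bases before the start, and neither of the other motifs. The Spns2 window had 51.6% G and C and held 2 SOX cores, 221 and 108 bases before the start. It lies inside the longer GENCODE M21 gene model, upstream of an internal RefSeq start, and shares 0 bases with that gene's exons. The S1pr3 window had 56.4% G and C, a GC box 20 bases before the start and an E-box 210 bases before it. Over all windows, 16.5% held the SOX core, 32.7% the GC box and 13.0% the E-box. A match describes the letters only, since no binding was measured here.

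The libraries differed in type as well as in genotype. Estimated totals, to the nearest 100000, were 23600000 to 32500000 reads in the 3 WT libraries and Qk-KO replicate 1, with 59.8% to 64.8% of the signal in 4 ribosomal RNA features. Qk-KO replicates 2 and 3 had 78900000 and 71400000 reads and only 2.23% and 1.88% ribosomal signal. Outside the ribosomal features this left 8700000 to 13100000 reads in the first 4 libraries, against 77100000 and 70000000 in the deeper pair. No WT library was of the low-ribosomal type, so each tested member is also given for Qk-KO replicate 1 alone against WT, a fit that takes the spread of the WT libraries for the single Qk-KO library too. For Qk itself the WT libraries stood at log2 values of 15.41, 15.67 and 15.31 and the Qk-KO libraries at 16.10, 15.62 and 15.30, a difference of 0.21 ± 0.25 (adjusted p = 0.567). A whole-gene value includes reads from exons outside the deleted part and so checks nothing about the labels.

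The cells carried the oligodendrocyte identity of their label together with RNA of other brain cells. Of 10 mature oligodendrocyte markers, 6 were higher and 1 lower in Qk-KO (median change 0.81). Mbp, a myelin protein gene, changed by 1.07 ± 0.26 (adjusted p = 0.0176). The summed back-transformed values of the 10 markers (2 raised to the log2 value) ran from 456278 to 590853 in WT and from 619784 to 681183 in Qk-KO. Of 10 astrocyte markers, 9 were lower (median change -2.51), and the sum of the 10 ran from 141039 to 177666 in WT and from 18849.8 to 29917.2 in Qk-KO. Gfap, the marker not called and named after its values were seen, went the other way, at 0.81 ± 0.26 (adjusted p = 0.0526). Slc1a2, a glutamate transporter, fell by 2.48 ± 0.26 (adjusted p = 0.000530) and Atp1b2, a sodium pump subunit, fell by 3.92 ± 0.43 (adjusted p = 0.000617). In bulk RNA, fewer cells of a type and less RNA per cell cannot be told apart.

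Vessel markers were lower in Qk-KO as well. All 9 endothelial markers were lower (median change -0.89), with sums of 23200.6 to 32883.3 in WT and 13570.3 to 14596 in Qk-KO, and Flt1, a VEGF receptor, fell by 1.10 ± 0.16 (adjusted p = 0.00210). Of 8 mural cell markers 6 were lower (median change -0.81), with sums of 20401.7 to 25318.3 and 11579.7 to 12014.4, and Notch3 fell by 1.37 ± 0.11 (adjusted p = 0.000204). Slco1a4, an endothelial transporter, fell by 0.89 ± 0.16 (adjusted p = 0.00475), and Rgs5, a pericyte regulator of G protein signalling, by 1.06 ± 0.14 (adjusted p = 0.00145). Microglia markers went the other way, with 4 of 9 higher and none lower (median change 1.33, and 0.61 in Qk-KO replicate 1 alone). Their sum was 6711.9 to 10371.2 in WT, 15158.6 and 16329.9 in Qk-KO replicates 1 and 2, and 57606 in replicate 3. C1qa, a complement subunit, changed by 2.44 ± 0.55 (adjusted p = 0.0140).

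In the remaining marker lists most tested members were not called. Median changes were -0.31 for precursor, 0.25 for neuron, -0.75 for ependymal and choroid plexus, and -0.28 for lymphocyte markers. In Qk-KO replicate 1 alone these medians were 0.50, 0.50, -1.22 and -0.24. Of 7 oligodendrocyte precursor markers 1 was lower, Ptprz1 at -2.13 ± 0.38 (adjusted p = 0.00505), while Tnr differed by -0.31 ± 0.46 (adjusted p = 0.642). The precursor sum was 18403.4 to 33854.4 in WT, and 22296.3, 17708.5 and 8554.83 in Qk-KO replicates 1, 2 and 3. Of 7 neuron markers 2 were higher, among them Tubb3 at 1.51 ± 0.44 (adjusted p = 0.0345) but 0.38 in Qk-KO replicate 1 alone (adjusted p = 0.373), with Snap25 at 0.02 ± 0.24 (adjusted p = 0.959). Their sum ran from 1389.83 to 1587.27 in WT and from 1942.89 to 3828.56 in Qk-KO. Of 5 ependymal and choroid plexus markers 1 was lower, Kl at -1.23 ± 0.18 (adjusted p = 0.00230), and Ttr differed by -0.84 ± 0.30 (adjusted p = 0.0667). Their sum ran from 50911 to 73163.3 in WT and from 22835.2 to 46863.8 in Qk-KO. None of the 3 tested lymphocyte markers of 5 listed was called, with Ptprc at 0.58 ± 0.40 (adjusted p = 0.302) and Cd79a at -0.69 ± 0.27 (adjusted p = 0.0896). Their sum ran from 496 to 814 in WT and from 630 to 1698 in Qk-KO. No marker of any list was at 0 in all 6 libraries.

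S1pr1 fell and S1pr5 rose, while S1pr3, present at far lower levels, fell and S1pr2 and S1pr4 did not pass the test. Among turnover genes Spns2 rose, and Sphk2, Sgpl1 and Sgpp1 did not pass the test. Counted over the 9 tested members, 2 were higher and 2 lower in Qk-KO, beside 28.6% of all tested features called in either direction, 13.8% higher and 14.8% lower. The groups did not overlap for 4 of the 9, S1pr1, S1pr3, S1pr5 and Spns2, beside 46.3% of all tested features. The median change of the 9 was -0.04, and that of all tested features was 0.03. In Qk-KO replicate 1 alone against WT, S1pr1, S1pr5 and Spns2 were called, beside 15.5% of all features. The authors' deposited table called the same 4 of 10 members, S1pr1, S1pr3, S1pr5 and Spns2, in the same directions, beside 27.9% of the features with an adjusted p in the authors' deposited table.

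**Figure D1:**
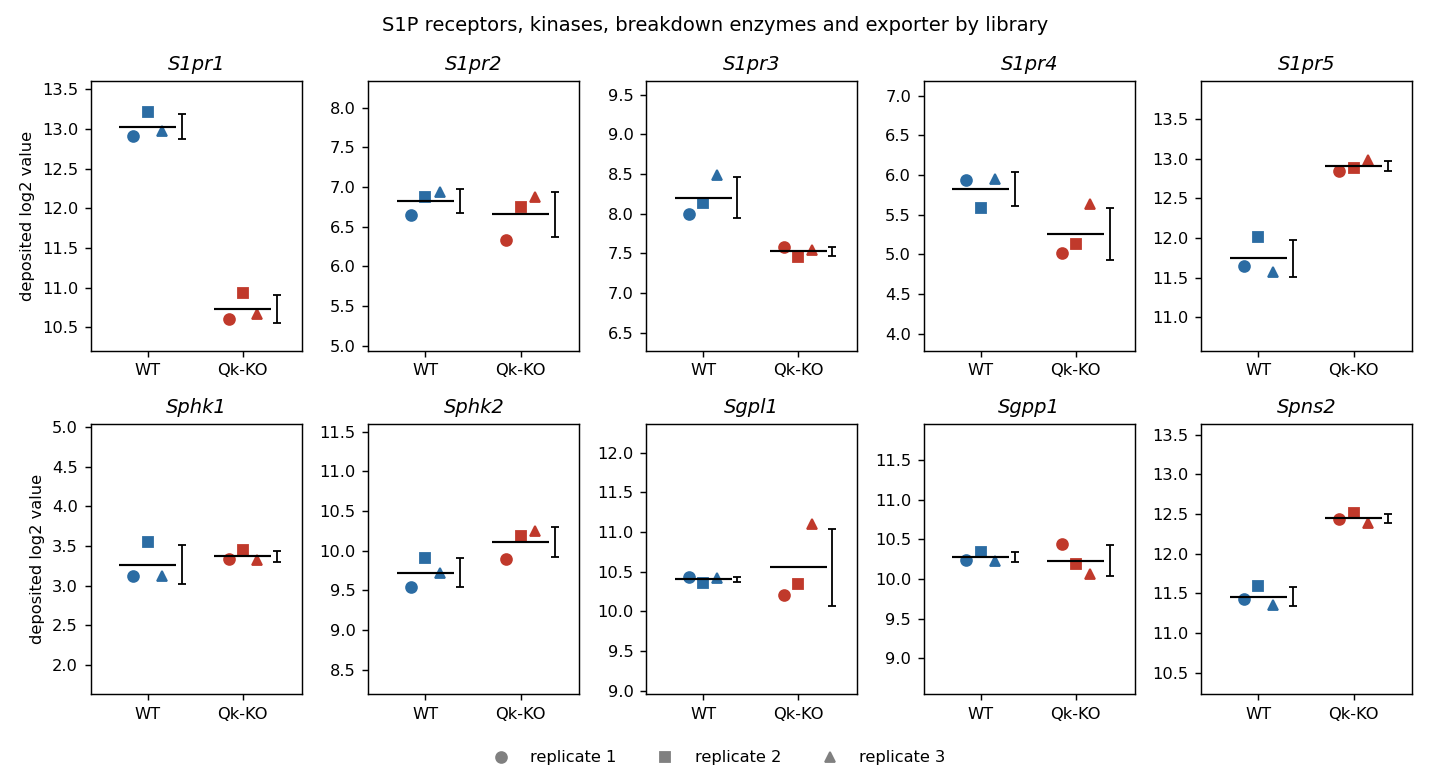
Deposited log2 value of each member (vertical axes, log2 scale) in the 3 WT and 3 Qk-KO libraries, 1 panel per gene and 1 point per library, with the group mean as a line and the SD as a bar beside the points, blue for WT and red for Qk-KO. S1pr1 lies at 12.91 to 13.21 in WT and 10.60 to 10.93 in Qk-KO, S1pr5 and Spns2 lie higher in all 3 Qk-KO libraries than in any WT library, and the Sgpl1 point of Qk-KO replicate 3 stands at 11.11 above the other 5.

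S1pr1 (ENSMUSG00000045092.8) lies at chr3:115710433-115715072 on the minus strand of mm10 and encodes a receptor that couples to Gi proteins. The WT libraries (replicates 1, 2 and 3, as in every such series of values below) stood at log2 values of 12.91, 13.21 and 12.97 and the Qk-KO libraries at 10.60, 10.93 and 10.67. All 3 Qk-KO libraries lay more than 1 log2 unit below every WT library. The change was -2.30 ± 0.14 (95% confidence interval -2.61 to -1.98, adjusted p = 8.73e-05), a level 4.91-fold lower. Qk-KO replicate 1 alone gave -2.43 ± 0.16 (adjusted p = 0.000231), and the authors' deposited table gave -2.67 ± 0.18 (SE, adjusted p = 9.21e-45). Where libraries were scaled to an equal summed value instead, which moves the median change of all genes by 1.06, the change was -1.24 and was not called (adjusted p = 0.0740). That sum includes the ribosomal features, and scaling outside them gave -2.25 (adjusted p = 8.37e-05). Astrocyte, endothelial and mural marker lists were lower alongside S1pr1. Against the WT mean their medians stood at -2.62, -1.01 and -0.94 in Qk-KO replicate 1, at -2.17, -0.83 and -0.75 in replicate 2 and at -2.90, -0.75 and -0.78 in replicate 3. The part of those cells in the S1pr1 change was not tested.

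S1pr5 (ENSMUSG00000045087.8, chr9:21242912-21248443, minus strand) encodes the receptor known from mature oligodendrocytes, and it moved in the opposite direction. Its WT libraries stood at 11.65, 12.01 and 11.58 and its Qk-KO libraries at 12.85, 12.89 and 12.98 (log2 value). The 3 Qk-KO libraries lay close together and above every WT library. The change was 1.16 ± 0.14 (95% confidence interval 0.83 to 1.49, adjusted p = 0.000996), a level 2.24-fold higher. Qk-KO replicate 1 alone gave 1.10 ± 0.19 (adjusted p = 0.00846), and the authors' deposited table gave 1.33 ± 0.19 (adjusted p = 3.35e-11). With an equal summed value the change was 2.22 and was called. The median of the mature oligodendrocyte markers lay 0.72, 0.86 and 0.77 over the WT mean in the 3 Qk-KO libraries, and their part in the S1pr5 change was not tested. The gene shares 51 exon bases with Gm48303 on the other strand, which was not analysed here.

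S1pr3 (ENSMUSG00000067586.3, chr13:51408639-51422797, plus strand) encodes a receptor that couples to several G protein families. Its WT libraries stood at 8.00, 8.13 and 8.49 and its Qk-KO libraries at 7.58, 7.46 and 7.54 (log2 value). The groups did not overlap, and the WT libraries spread over a wider range than the Qk-KO libraries. The change was -0.68 ± 0.16 (95% confidence interval -1.06 to -0.30, adjusted p = 0.0179), a level 1.60-fold lower, which turned to 0.38 (adjusted p = 0.589) with libraries scaled to an equal summed value. It stayed called at -0.64 (adjusted p = 0.0380) with scaling outside the ribosomal features. The call was lost without WT replicate 3 (-0.54, adjusted p = 0.0605), without Qk-KO replicate 2 (-0.65, adjusted p = 0.0729) and in Qk-KO replicate 1 alone (-0.63, adjusted p = 0.138). In the authors' deposited table the change was -0.98 ± 0.26 (adjusted p = 0.00153). The vessel and astrocyte marker lists given beside S1pr1 were lower in the same libraries, and their part in the S1pr3 change was not tested.

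The other 2 receptors were weakly expressed. S1pr4 (ENSMUSG00000044199.5, chr10:81497747-81500132, minus strand), a receptor of blood-borne immune cells, stood at log2 values of 5.94, 5.58 and 5.95 in the WT libraries and at 5.02, 5.13 and 5.63 in the Qk-KO libraries. The groups overlapped by Qk-KO replicate 3. That library also had the highest microglia and lymphocyte marker sums. Its lymphocyte sum was mostly Ptprc, at a log2 value of 10.69. Cd79a was lowest in that library, at 4.42, and the median of the tested lymphocyte markers stood at -0.14 against the WT mean. The part of either cell type in the S1pr4 value of Qk-KO replicate 3 was not tested. The difference was -0.56 ± 0.21 (95% confidence interval -1.04 to -0.09, adjusted p = 0.0745), it was called without Qk-KO replicate 3 (-0.75, adjusted p = 0.0226), and it turned to 0.49 with an equal summed value. In Qk-KO replicate 1 alone it was -0.81 (adjusted p = 0.0808). These values rest on about 20 to 30.8 reads in each of the 4 shallower libraries. S1pr2 (ENSMUSG00000043895.5, chr9:20962361-20976781, minus strand), a receptor that couples to G12/13 proteins, stood at log2 values of 6.65, 6.88 and 6.93 in the WT libraries and at 6.34, 6.75 and 6.87 in the Qk-KO libraries. The groups overlapped, and the difference of -0.17 ± 0.19 (95% confidence interval -0.60 to 0.26, adjusted p = 0.530) turned to 0.89 with an equal summed value. Qk-KO replicate 1 alone gave -0.48 for it, with an adjusted p of 0.238. In the authors' deposited table the value of S1pr4 was -1.10 ± 0.52 (adjusted p = 0.102) and that of S1pr2 -0.24 ± 0.36 (adjusted p = 0.688).

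**Figure D2:**
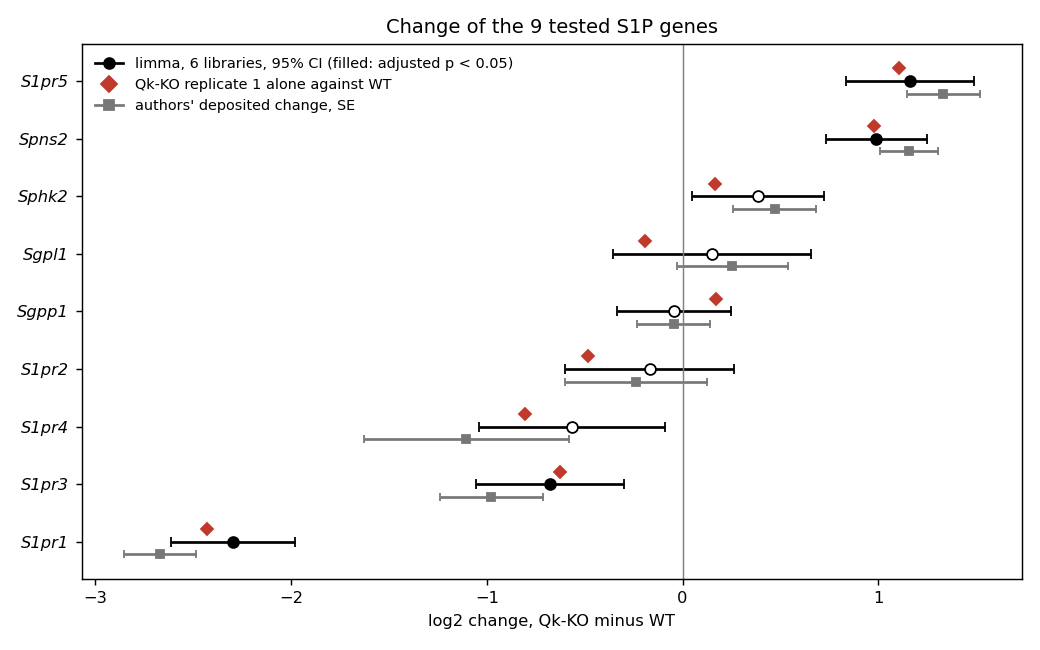
Change of each tested member in Qk-KO minus WT (horizontal axis, log2 scale) with its 95% confidence interval from limma (circles, filled where called), beside Qk-KO replicate 1 alone against WT (diamonds) and the log2 fold change with its standard error in the authors' deposited table (squares). S1pr1 at -2.30 and S1pr3 at -0.68 have intervals below 0, S1pr5 at 1.16 and Spns2 at 0.99 have intervals above 0, and the intervals of Sgpl1, Sgpp1 and S1pr2 include 0. The unadjusted intervals of S1pr4 and Sphk2 exclude 0, but neither gene was called (limma adjusted p = 0.0745 and 0.0824).

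Levels were compared between genes as back-transformed values per kilobase of GENCODE M21 exon, on a linear scale. S1pr1 was the highest member in WT, at 2758 ± 312 (SD, n = 3), followed by S1pr5 at 1386 ± 234 and Spns2 at 690 ± 58.3. Sgpl1 at 220 ± 5.37, Sgpp1 at 219 ± 9.44 and Sphk2 at 205 ± 26.0 did not differ beyond their spread. S1pr3 at 66.8 ± 12.1, S1pr4 at 23.9 ± 3.32, S1pr2 at 14.2 ± 1.43 and Sphk1 at 2.04 ± 0.36 followed. In Qk-KO the order began with S1pr5 at 3073 ± 146, Spns2 at 1367 ± 57.0 and S1pr1 at 562 ± 69.1. Sphk2 at 267 ± 34.2, Sgpl1 at 254 ± 90.8 and Sgpp1 at 214 ± 29.4 again overlapped. S1pr3 stood at 41.3 ± 1.72, while S1pr4 at 16.3 ± 3.91 and S1pr2 at 12.8 ± 2.37 overlapped, and Sphk1 was lowest at 2.17 ± 0.10. The exon lengths count every annotated exon, so genes with long unused exons are placed too low.

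As shares of the summed receptor level per kilobase, the receptor RNA of the libraries was mostly S1pr1 in WT and mostly S1pr5 in Qk-KO. In the same libraries the median change was -2.51 for astrocyte markers and 0.81 for mature oligodendrocyte markers. The part of the cell mix in the receptor shares was not tested. S1pr1 made up 64.6%, 64.0% and 66.3% of the WT libraries' sum but 14.4%, 17.1% and 13.9% of the Qk-KO libraries' sum. S1pr5 made up 32.9%, 34.0% and 30.7% of the sum in the WT libraries but 83.7%, 81.1% and 84.1% of it in the Qk-KO libraries. Neither share overlapped between groups. The log2 ratio of S1pr1 to S1pr5 stood at 0.97, 0.91 and 1.11 in the WT libraries and at -2.54, -2.24 and -2.59 in the Qk-KO libraries, and this ratio within a library does not depend on how libraries are scaled. An exact permutation test of 3 libraries against 3 cannot give a two-sided p below 0.1, which is the value for such a complete separation. The other 3 receptors held small shares in both groups, with means of 1.59% in WT and 1.12% in Qk-KO for S1pr3, 0.574% and 0.439% for S1pr4, and 0.337% and 0.344% for S1pr2. The summed receptor level per kilobase was 3900, 4863 and 3985 for the WT libraries and 3530, 3737 and 3848 for the Qk-KO libraries, so the Qk-KO values lay just below the WT values.

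**Figure D3:**
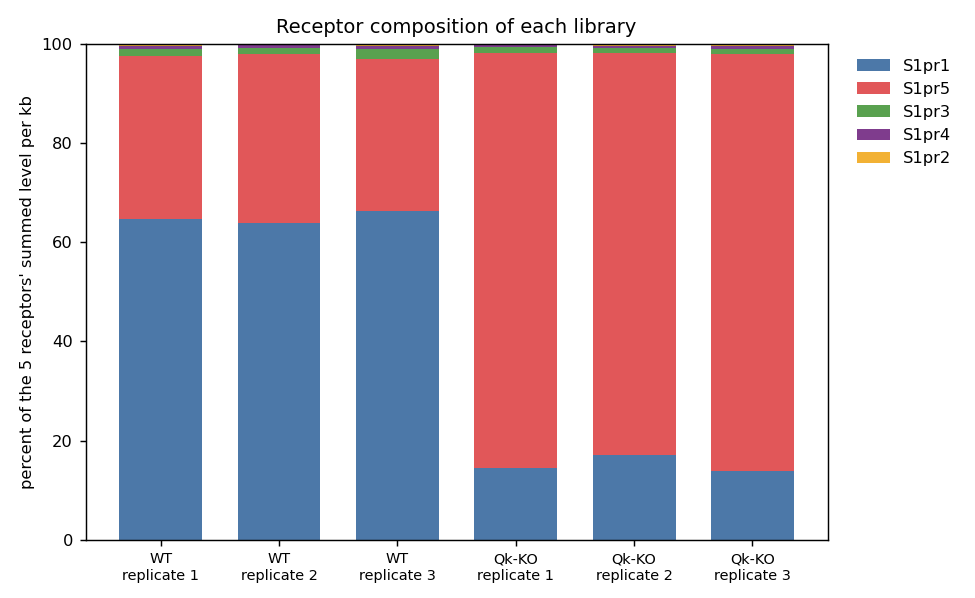
Share of each S1P receptor in the summed level per kilobase of the 5 receptors (vertical axis, percent), 1 stacked bar per library, WT and Qk-KO. S1pr1 takes 64.0% to 66.3% of each WT bar and 13.9% to 17.1% of each Qk-KO bar, and S1pr5 takes most of the remainder.

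The kinases make S1P from sphingosine. Sphk2 (ENSMUSG00000057342.13, chr7:45709467-45718002, minus strand) stood at log2 values of 9.54, 9.91 and 9.73 in the WT libraries and at 9.89, 10.19 and 10.25 in the Qk-KO libraries. The groups overlapped, since Qk-KO replicate 1 lay just below WT replicate 2. The difference was 0.38 ± 0.15 (95% confidence interval 0.05 to 0.72, adjusted p = 0.0824), it was 0.17 in Qk-KO replicate 1 alone (adjusted p = 0.590), and it was called without Qk-KO replicate 1 (0.49, adjusted p = 0.0253). Its exons share 373 bases with Rpl18 and 539 bases with Dbp on the other strand, and since the sources used here do not say whether strand was used, reads there cannot be assigned to one gene. Rpl18 differed by 0.49 (adjusted p = 0.189) and Dbp, a circadian transcription factor, fell by 1.18 (adjusted p = 0.000564). In the authors' deposited table Sphk2 was at 0.47 ± 0.21 (adjusted p = 0.0808).

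Sphk1 (ENSMUSG00000061878.15, chr11:116530925-116536674, plus strand), the other kinase, was the most weakly expressed member. Its WT libraries stood at 3.12, 3.55 and 3.13 and its Qk-KO libraries at 3.34, 3.45 and 3.32 (log2 value), and the groups overlapped. Its mean normalized count of 10.6 was under the minimum, and it was not tested. The values rest on about 3.91 to 6.26 reads in each of the 4 shallower libraries and on 45.3 and 37.8 reads in Qk-KO replicates 2 and 3. In the authors' deposited table it was at 0.28 ± 0.69 (adjusted p = 0.814). Per kilobase, Sphk2 exceeded Sphk1 in every library, by 6.56 to 7.13 log2 units.

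S1P is degraded by the lyase Sgpl1, which cleaves it irreversibly, and recycled to sphingosine by the phosphatase Sgpp1. Sgpl1 (ENSMUSG00000020097.14, chr10:61098642-61147703, minus strand) stood at log2 values of 10.43, 10.36 and 10.42 in the WT libraries and at 10.21, 10.34 and 11.11 in the Qk-KO libraries. Qk-KO replicates 1 and 2 lay below every WT library and replicate 3 lay above them all. The difference was 0.15 ± 0.22 (95% confidence interval -0.35 to 0.66, adjusted p = 0.635), and it turned to -0.12 (adjusted p = 0.490) without Qk-KO replicate 3 and to -0.19 (adjusted p = 0.402) in Qk-KO replicate 1 alone. Replicate 3 was also the library with the microglia marker sum of 57606, and the part of microglial RNA in its Sgpl1 value was not tested. Sgpp1 (ENSMUSG00000021054.5, chr12:75714249-75735729, minus strand) stood at log2 values of 10.24, 10.34 and 10.23 in the WT libraries and at 10.44, 10.19 and 10.06 in the Qk-KO libraries, which overlapped. Its difference was -0.04 ± 0.13 (95% confidence interval -0.34 to 0.25, adjusted p = 0.824), with 0.17 in Qk-KO replicate 1 alone and 1.01 with an equal summed value. In the authors' deposited table Sgpl1 was at 0.25 ± 0.28 (adjusted p = 0.555) and Sgpp1 at -0.04 ± 0.19 (adjusted p = 0.898).

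Spns2 (ENSMUSG00000040447.15, chr11:72451638-72489904, minus strand) encodes a transporter that releases S1P from cells, and it rose. Its WT libraries stood at 11.43, 11.59 and 11.35 and its Qk-KO libraries at 12.44, 12.51 and 12.39 (log2 value). All Qk-KO libraries lay above all WT libraries. The change was 0.99 ± 0.11 (95% confidence interval 0.73 to 1.25, adjusted p = 0.000727), a level 1.98-fold higher. Qk-KO replicate 1 alone gave 0.98 ± 0.15 (adjusted p = 0.00489), and the authors' deposited table gave 1.16 ± 0.15 (adjusted p = 5.55e-13). With an equal summed value the change was 2.05 and was called. Spns2 shares 131 exon bases with Mybbp1a on the other strand, which differed by 0.19 (adjusted p = 0.247). The log2 ratio of S1pr5 to Spns2 per kilobase stood at 0.93, 1.13 and 0.93 in the WT libraries and at 1.12, 1.08 and 1.30 in the Qk-KO libraries, so these ranges overlapped. The mature oligodendrocyte marker medians given beside S1pr5 moved with Spns2 too. The astrocyte, endothelial and mural marker medians given beside S1pr1 moved the other way. The part of any of these cell types in the Spns2 change was not tested.

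**Figure D4:**
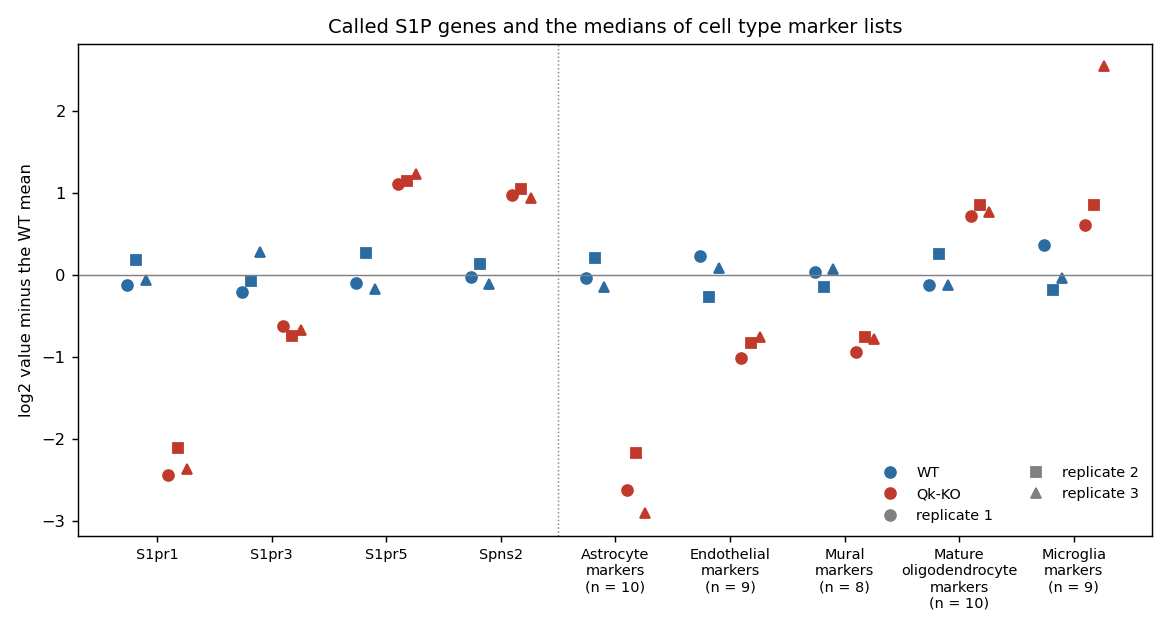
Log2 value minus the WT mean (vertical axes, log2 scale) in each of the 6 libraries for the 4 called members and, to their right, for the medians of 5 cell type marker lists, blue for WT and red for Qk-KO, with 1 symbol shape per replicate number. S1pr1 lies between -2.43 and -2.10 in Qk-KO where the astrocyte marker median lies between -2.90 and -2.17, and the microglia marker median is highest in Qk-KO replicate 3, at 2.54.

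The features most like each of the main receptors were found by the root-mean-square distance between the 6 library values, each minus the WT mean. Candidates were 11159 features whose mean normalized count reached 100, leaving out those with numbered Gm or Rik symbols. The 6 libraries share one contrast, so this describes likeness in 6 libraries only. Nearest to S1pr1 were Pla2g7, a lipoprotein-associated phospholipase, at a distance of 0.053 (change -2.26), Kcnn3, a calcium-activated potassium channel, at 0.092 (change -2.33) and Bmpr1b, a BMP receptor, at 0.097 (change -2.26). Nearest to S1pr5 were H2afj, a histone variant, at 0.067 (change 1.22), Aatk, a kinase, at 0.070 (change 1.18) and Gpr62, an orphan receptor, at 0.082 (change 1.25).

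Of 8 related lysolipid and cannabinoid receptors 5 were tested and 1 was called, beside 28.6% of all tested features. The median change was 0.05, beside 0.03 over all features. The gene called was Lpar4, a receptor for lysophosphatidic acid, at log2 values of 6.79, 6.52 and 6.39 in the WT libraries and at 5.44, 5.46 and 5.06 in the Qk-KO libraries (change -1.25 ± 0.18, adjusted p = 0.00217). Lpar4 was lower in all 3 Qk-KO libraries than in any WT library, but with an equal summed value it was at -0.19 and not called (adjusted p = 0.793).

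Genes of S1P and sphingosine turnover outside the 10 members moved in both directions. Of 24 listed, 20 were tested, 4 were higher, 5 were lower and 11 did not pass, with a median change of -0.11. Over all tested features 13.8% were higher and 14.8% lower. Acer1 and Apom were listed at 0 in all 6 libraries, and Cers3 and Spns3 were under the minimum. Plpp1, Plpp2 and Plpp3 are phosphatases that hydrolyse S1P outside cells. Plpp3, listed as Ppap2b, stood at log2 values of 13.49, 13.88 and 13.56 in the WT libraries and at 11.96, 12.06 and 11.77 in the Qk-KO libraries. It fell by 1.71 ± 0.15 (adjusted p = 0.000222), the groups did not overlap, and with an equal summed value it was at -0.66 and not called (adjusted p = 0.290). Plpp2, listed as Ppap2c, stood at 8.82, 9.22 and 8.88 in the WT libraries and at 9.77, 10.004 and 10.08 in the Qk-KO libraries and rose by 0.98 ± 0.15 (adjusted p = 0.00266). Plpp1, listed as Ppap2a and named after its values were seen, differed by -0.60 ± 0.20 (adjusted p = 0.0606), and Qk-KO replicate 1 alone gave -0.999, which was called (adjusted p = 0.0222). Sgpp2, the second intracellular S1P phosphatase, fell by 1.10 ± 0.16 (adjusted p = 0.00191), from 8.48 to 8.96 in WT to between 7.55 and 7.65 in Qk-KO, but was at -0.05 with an equal summed value (adjusted p = 0.950).

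Ceramide synthases return sphingosine to ceramide. Cers1 stood at log2 values of 9.99, 10.36 and 9.97 in the WT libraries and at 8.38, 8.27 and 8.34 in the Qk-KO libraries, and fell by 1.77 ± 0.14 (adjusted p = 0.000155), with -0.72 and no call under an equal summed value (adjusted p = 0.282). Cers5 rose by 0.55 ± 0.12 (adjusted p = 0.0121), a call lost without WT replicate 3 (adjusted p = 0.0545), without Qk-KO replicate 2 (adjusted p = 0.0598) and in Qk-KO replicate 1 alone (adjusted p = 0.121). Cers4 fell by 0.57 ± 0.14 (adjusted p = 0.0171) and turned to 0.49 with an equal summed value. Its call was lost without WT replicate 1 (adjusted p = 0.0612), WT replicate 3 (adjusted p = 0.0704) or Qk-KO replicate 2 (adjusted p = 0.0781), and in Qk-KO replicate 1 alone (-0.41, adjusted p = 0.170). Cers2, the main synthase for the very long acyl chains of myelin lipids, stood at log2 values of 12.73, 12.95 and 12.61 in the WT libraries and at 13.09, 13.13 and 13.11 in the Qk-KO libraries (difference 0.35, adjusted p = 0.0765). Cers4 and Cers2 were named after their values were seen.

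Some of the listed transporters of S1P and lysolipids differed and others did not. Abca1 at -0.11 (adjusted p = 0.634) and Spns1 at -0.04 (adjusted p = 0.873), named after their values were seen, were not called. Mfsd2a, which carries lysophosphatidylcholine across brain endothelium, stood at log2 values of 11.04, 10.46 and 10.47 in the WT libraries and at 9.08, 9.13 and 8.74 in the Qk-KO libraries and fell by 1.67 ± 0.19 (adjusted p = 0.000742), with -0.61 and no call under an equal summed value (adjusted p = 0.341). Mfsd2b, an S1P exporter of blood cells, rose by 0.55 ± 0.16 (adjusted p = 0.0344), and Abcc1, a multidrug transporter that can carry S1P, by 0.52 ± 0.14 (adjusted p = 0.0250). Both calls were weak: Mfsd2b was not called in Qk-KO replicate 1 alone (adjusted p = 0.373) or without any of WT replicates 1, 2 and 3 and Qk-KO replicates 2 and 3 (adjusted p from 0.0562 to 0.140). Abcc1 was not called in Qk-KO replicate 1 alone (adjusted p = 0.263) or without any one of WT replicates 2 and 3 and Qk-KO replicates 2 and 3 (adjusted p from 0.0564 to 0.0966).

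Among 20 genes that couple S1P receptors to the cell, all tested, 3 were higher, 4 were lower and 13 did not pass, with a median change of 0.05, beside 28.6% of all tested features called. Gna12, a G protein alpha subunit, stood at log2 values of 13.43, 13.71 and 13.48 in the WT libraries and at 14.40, 14.69 and 14.64 in the Qk-KO libraries, and rose by 1.03 ± 0.15 (adjusted p = 0.00234). Gna13, of the same G protein family, fell by 0.63 ± 0.12 (adjusted p = 0.00706) but turned to 0.42 with an equal summed value. Arhgef12, a guanine nucleotide exchange factor acting after both, fell by 0.79 ± 0.10 (adjusted p = 0.00138) and turned to 0.27 under that scaling. Arrb1, a beta-arrestin of receptor desensitization, stood at 10.69, 11.24 and 10.65 in the WT libraries and at 9.87, 9.14 and 9.28 in the Qk-KO libraries, and fell by 1.43 ± 0.23 (adjusted p = 0.00321), with -0.37 and no call under that scaling (adjusted p = 0.558). Klf2, a transcription factor that drives S1pr1 in lymphocytes, fell by 0.92 ± 0.20 (adjusted p = 0.0120) and turned to 0.14 with an equal summed value. Its call was lost without WT replicate 1 (adjusted p = 0.0536), WT replicate 3 (adjusted p = 0.0545) or in Qk-KO replicate 1 alone (adjusted p = 0.111).

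The 2 remaining calls of the coupling list were rises. Wwp2, a ubiquitin ligase of receptor turnover, rose by 0.66 ± 0.13 (adjusted p = 0.00712), and in Qk-KO replicate 1 alone it was 0.51 (adjusted p = 0.0794). Gna11, a Gq-family subunit, rose by 0.44 ± 0.10 (adjusted p = 0.0146). The Gna11 call was lost without WT replicate 1 (adjusted p = 0.0628), WT replicate 3 (adjusted p = 0.0555) or Qk-KO replicate 2 (adjusted p = 0.0679), and in Qk-KO replicate 1 alone (adjusted p = 0.0804).

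**Figure D5:**
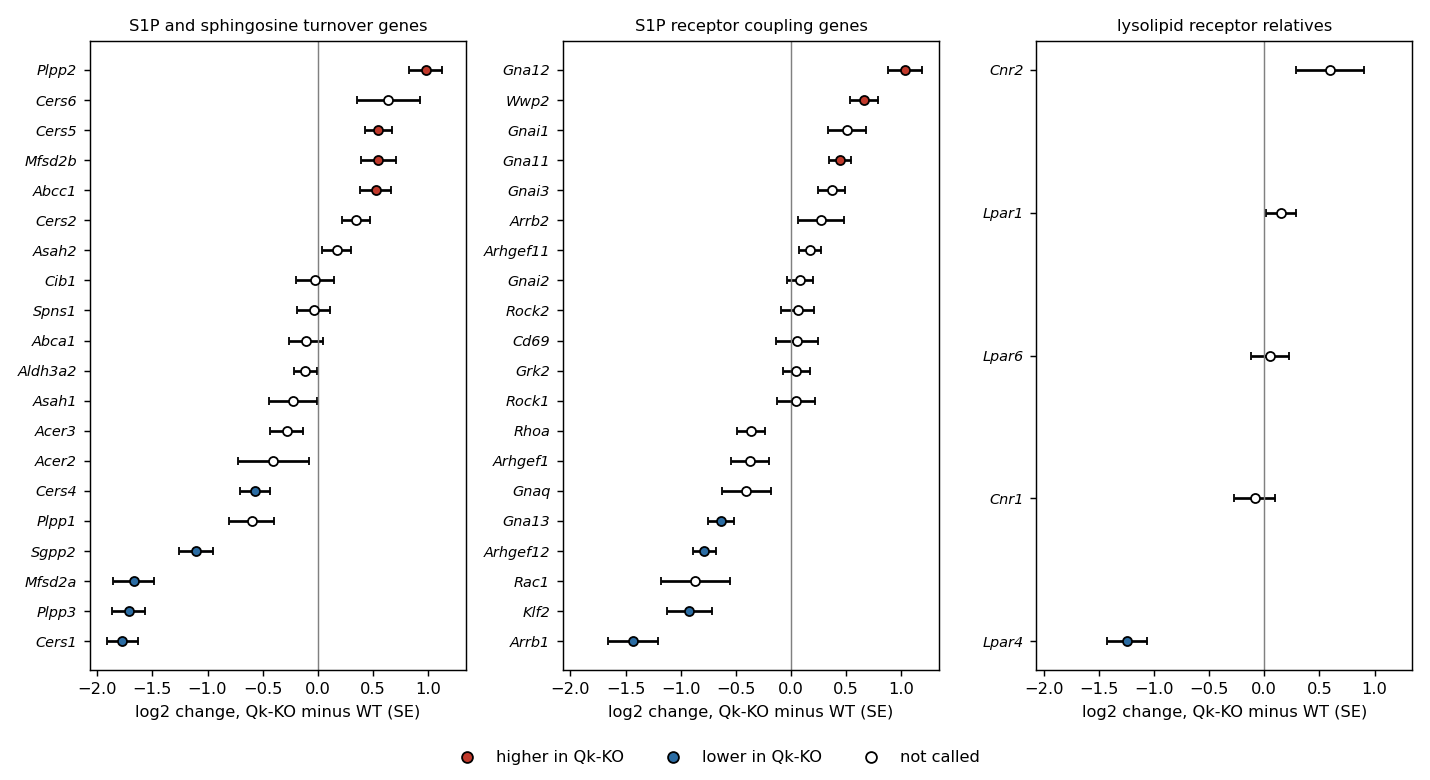
Change in Qk-KO minus WT (horizontal axis, log2 scale) of the tested genes of the 3 lists around the members, 1 point per gene with its standard error from limma, red where higher, blue where lower and open where not called. Cers1 at -1.77, Plpp3 (Ppap2b) at -1.71 and Mfsd2a at -1.67 lie farthest to the left in the turnover panel, Arrb1 at -1.43 in the coupling panel and Lpar4 at -1.25 in the panel of receptor relatives.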

How the data were processed

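The deposited table gives, per the file headers, a log2 value for each of 46983 features and 6 libraries, the mean normalized count over all libraries (a signal averaged by the authors), and the authors' log2 fold change with its error, Wald score, p-value and adjusted p-value. FastQC, TopHat2 2.0.14, featureCounts and DESeq2 with mm10 were used, per the submitters' processing notes. The annotation release and the strandedness were not given in the sources used here. Those deposited log2 values behave like size-factor-scaled values shrunken most where reads are few, so differences can be understated, above all those of weak genes. Changes of strongly expressed members were smaller too. S1pr1 was at -2.30 here and -2.67 in the authors' deposited table, S1pr5 at 1.16 and 1.33, and Spns2 at 0.99 and 1.16. Since the deposited values are not raw counts, the edgeR test foreseen for raw counts was replaced by limma 3.58.1 with a mean-variance trend in R 4.3.3. It was fitted to the 15153 features whose mean normalized count reached 20, without a pseudocount, and was first tested on simulated data. The simulation gave each gene the same spread in all libraries and held no library type difference. It therefore cannot show how the fit behaves with the mixed library types of these data.

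Read totals are estimates from the size factors that the steps of the deposited mean normalized count imply. Gene-level reads are the back-transformed deposited values times these size factors. They are approximate and are not counts, and for weak genes they carry the shrinkage of the deposited values. GENCODE M21, on the same build, contained 46488 of the 46983 feature identifiers and gave exon lengths and overlaps. Columns were assigned to libraries by the sample number in the labels, and 0 columns were left unmatched. The members and gene lists were chosen with earlier results of these data known. Named genes are all members, Qk, up to 4 called genes per direction and pathway list by adjusted p, the 2 most abundant markers per cell type list and the 3 features nearest in pattern to S1pr1 and S1pr5. Some genes that this rule selects are not reported here. Alternatives covered the filter, the variance model, library type, sample number series, a replicate block, scaling and leaving out each library.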

Additional observations from a re-analysis of the deposited data

How the results depend on the processing

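S1pr5 and Spns2 were called higher under all 16 alternatives, and S1pr1 was lower under all 16 and called in all but the scaling to an equal summed value. That scaling, which includes the ribosomal features, shifted the median of all genes by 1.06 and gave 2447 calls, 97.3% of them higher, against 48.2% of the 4330 calls reported. Under it 2 members were called, 4 turnover genes and 4 coupling genes, and the changes were -1.24 for S1pr1, 0.89 for S1pr2, 0.38 for S1pr3, 0.49 for S1pr4, 1.01 for Sgpp1, 0.27 for Arhgef12, 0.42 for Gna13, 0.14 for Klf2 and 0.49 for Cers4. Scaling outside the ribosomal features moved the median of all genes by 0.04 and gave 3810 calls. It kept the 4 member calls, with -2.25 for S1pr1 and -0.64 for S1pr3, and gave 0.000134 for Sgpp1. Also still called were Lpar4 (-1.20), Plpp3 (-1.67), Sgpp2 (-1.06), Cers1 (-1.73), Cers4 (-0.52) and Mfsd2a (-1.63). The same held for Arrb1 (-1.39), Gna13 (-0.59), Arhgef12 (-0.74) and Klf2 (-0.88), while Mfsd2b was not called (adjusted p = 0.0591). A term for library type left 2258 calls, and Qk-KO replicate 1 alone against WT gave 2355. Both of these gave 4 coupling calls, -0.63 for S1pr3 (not called), -0.19 for Sgpl1 and 0.17 for Sgpp1. With the sample number series in the model Sphk2 was 0.47 and called (adjusted p = 0.0411). Leaving out 1 library at a time gave 2370 calls (without Qk-KO replicate 2) to 5633 (without Qk-KO replicate 1), against 4330. It gave 5 to 9 turnover calls, 5 to 12 coupling calls, -0.78 to -0.54 for S1pr3, -0.75 to -0.44 for S1pr4, 0.29 to 0.49 for Sphk2, -0.12 to 0.32 for Sgpl1 and -0.15 to 0.042 for Sgpp1. The cause of these shifts was not tested, and fewer libraries enter each such fit. About 3.91 to 30.8 reads per shallower library limit Sphk1 and S1pr4.

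Replicate numbers paired the libraries only weakly, with same-number correlations of 0.104, 0.00462 and 0.0821, and not every library correlated best with its own number. With the replicate block 2091 genes were higher and 2254 lower, against 2087 and 2243, and Sphk2 at 0.38 was called (adjusted p = 0.0498), while Mfsd2b was not (adjusted p = 0.0637).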

Other observations

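A few genes of the lists differed among the Qk-KO libraries more than between the groups, and they were picked after their values were seen. Rac1, a small GTPase of the cytoskeleton, stood at log2 values of 12.46, 12.58 and 12.41 in the WT libraries and at 12.44, 11.16 and 11.24 in the Qk-KO libraries. Gnaq, a G protein alpha subunit, stood at 11.24, 11.40 and 11.28 in the WT libraries and at 11.45, 10.71 and 10.53 in the Qk-KO libraries. For both, Qk-KO replicate 1 lay within or above the WT range, and replicates 2 and 3, the libraries with little ribosomal signal, lay below it. Asah1, the acid ceramidase, stood at 10.61, 10.72 and 10.46 in the WT libraries and at 10.08, 10.15 and 10.90 in the Qk-KO libraries. Cnr2, a cannabinoid receptor of immune cells, stood at 5.32, 5.19 and 5.79 in the WT libraries and at 5.79, 5.58 and 6.72 in the Qk-KO libraries. Both were highest in Qk-KO replicate 3, as Sgpl1 was, where the microglia marker sum was 57606. The part of microglial RNA in the Asah1 and Cnr2 values was not tested. None of these 4 genes was called by limma (adjusted p = 0.0706, 0.199, 0.459 and 0.181 for Rac1, Gnaq, Asah1 and Cnr2).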
